A study of Mus musculus with 4 samples.

Results

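Transcript levels in pancreatic islets of refed mice were compared between KR mutant and wild type (WT) animals over all genes with a measured value. Islets are the clusters of insulin, glucagon and somatostatin secreting cells of the pancreas. A gene entered the comparison when its value had the status OK in both refed libraries and the mean of its FPKM in the pair was at least 1. FPKM is a count of sequenced fragments scaled by transcript length and by library size, so levels of different genes can be set side by side. Of the 23235 symbols in the files, 11899 entered, 173 were left out for their status and 11163 for a lower mean. The mice were of the strain C57BL/6 and of the genotypes WT and KR mutant, and both refed groups had been fasted for 48 h and then fed again for 6 h, per the labels of the samples, whereas the extraction protocol gives a fast of 24 h. Islets of 3 mice were combined per genotype, so each group is 1 pooled library and no difference between them has a replicate check. The 2 further libraries of the series, fasted WT and fasted KR islets, are used below as values beside the refed pair. Published work on KR mice describes a FoxO1 allele whose acetylation sites, lysines in the normal protein, carry arginine.

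FoxO1 is a forkhead factor that insulin signalling moves out of the nucleus, where it otherwise acts on genes of stress resistance, growth arrest and fuel use. In the beta cell it is known for its part in the identity and the metabolic choice of the cell, and its acetylation changes how long it stays in the nucleus. The series title names fat oxidation and secretion of insulin as its subjects. Refeeding is the state in which glucose and insulin act on the islet.

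The refed KR library was the shallower of the pair. The fragments implied by the deposited bounds summed to 18086202 in refed WT and 11068657 in refed KR, at a relative depth of 0.612 over 7996 genes. The FPKM of all genes with a value summed to 740740 in WT and 821098 in KR, and without Ins1 and Ins2 to 615845 and 607859. The insulin transcripts therefore held the larger share of the KR library, with Ins2 alone at 16.4% of the summed FPKM in WT and 24.5% in KR. Hormone transcripts of beta, alpha, delta and PP cells were all present at an FPKM of 2978 or more in both libraries. The acinar markers Cpa1 and Pnlip lay at 0.201 or less, and the acinar marker Prss2 at 0.0909 in WT and 1.63 in KR. Cela1, an elastase gene of acinar cells, stood at 47.3 in WT and 57.4 in KR. The T-cell marker Cd3e, the B-cell marker Ms4a1 and the adipocyte marker Adipoq were listed at 0 in both.

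Ratios below are log2((FPKM of KR + 1)/(FPKM of WT + 1)), a scale that understates the change of low genes, and a positive value means higher in KR. A gene was called when the ratio reached 1.5-fold in either direction and the deposited lower and upper bounds of the 2 libraries did not overlap. The bounds cover the counting and assignment of fragments within a library and say nothing of the spread between mice. Intervals in parentheses after a ratio are computed from those bounds and share that limit. Most genes lay close to the same level in the pair: 85.3% had a ratio within 0.25 of 0 and 97.8% within 0.5, with a median of -0.05. Called genes numbered 101, 0.849% of those tested, with 56 higher in KR (0.471%) and 45 lower (0.378%). Once KR was rescaled to bring the median ratio to 0, 66 were higher and 34 lower, 66.0% of calls on the higher side against 55.4% as deposited. The higher gene nearest to the threshold was Ugt2b35 at 0.59, and Slc22a21 at 0.57 fell just outside it. On the lower side Tpmt at -0.59 was inside and Pla2g2f at -0.58 outside. Beside the calls, genes whose bounds did not overlap were counted with no demand on the fold: 417 were higher (3.50%) and 1409 lower (11.8%). That imbalance moved with a small change of scale. After the same rescaling, a factor of 1.040 on KR, 757 were higher and 667 lower. The 757 make 53.2% of such genes, against 22.8% as deposited. Bringing the median to 0 by itself draws this split towards even. With KR rescaled instead to equal totals without Ins1 and Ins2, a factor of 1.013, 509 were higher and 1108 lower, 31.5% higher. Unless equal totals are named, rescaling below means the first of these. The imbalance also moved with level, and where the mean FPKM reached 50, over 1923 genes, 5.82% were higher and 33.2% lower by their bounds.

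**Figure D1:**
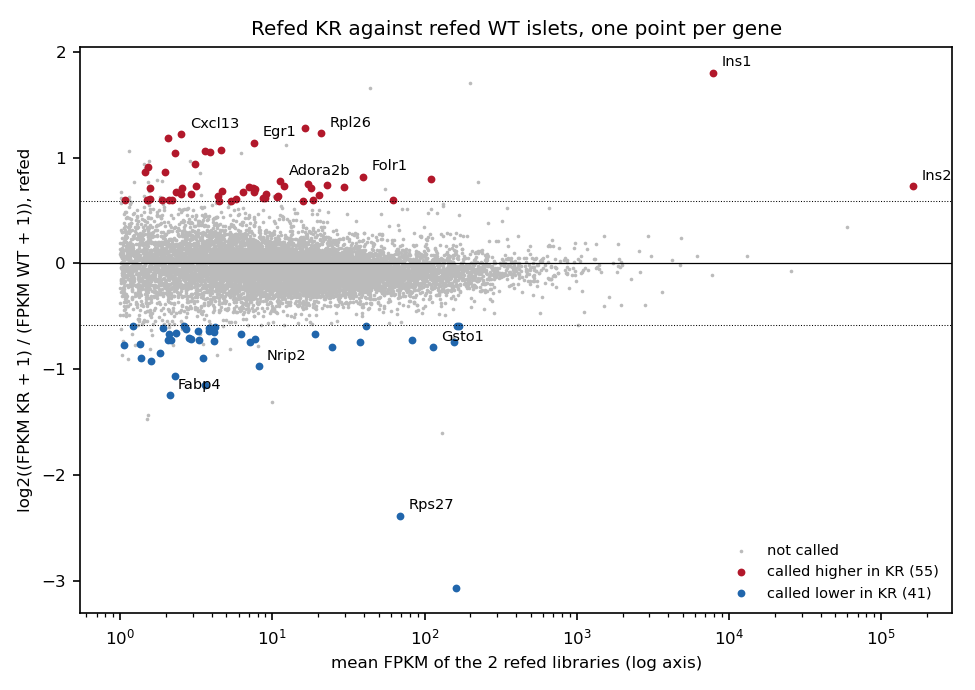
Each point is a gene, with the mean FPKM of the 2 refed libraries on a log axis and the log2 ratio of KR to WT on the y axis. Dotted lines mark 1.5-fold, red points are the 55 genes called higher and blue points the 41 called lower after leaving out 21 genes under an FPKM of 0.01 in a library, and Ins1 at 1.80, Rps27 at -2.38 and the small RNA gene Snora70, the lowest point, stand far from the rest.

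Ins2 had the highest level of all genes in both libraries, and Ins1 the highest ratio among called genes, leaving aside the pseudogene Pisd-ps1. Ins1, the insulin I gene (mm9, chromosome 19, 52338813 to 52339948), stood at 3498 in refed WT (bounds 3467 to 3529) and 12196 in refed KR (12122 to 12271), a ratio of 1.80 (1.79 to 1.82). Ins2, which encodes insulin II, stood at 121397 and 201043, a ratio of 0.73. Both were called, and their bounds lie far apart. The 2 genes are alike in sequence, so fragments could be assigned to either, and the split between them is uncertain. Iapp, which encodes amylin, a peptide stored with insulin, stood at 52784 in WT and 66975 in KR, a ratio of 0.34. After Ins2 it had the largest difference in level, though below 1.5-fold.

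Of 31 tested genes of beta-cell identity and maturity, 2 were called higher, these being the insulin genes, and 0 lower. By bounds alone 13 were higher, 3 lower and 15 overlapped, a share of 41.9% higher beside 5.82% of genes at an FPKM of 50 or more, and after the rescaling 14 were higher and 1 lower. The list median was 0.13, against -0.05 over all genes tested. Slc2a2, which encodes the transporter GLUT2, stood at 108 in WT (105 to 111) and 158 in KR (153 to 162), a ratio of 0.54. G6pc2, an islet glucose-6-phosphatase, stood at 542 and 776, a ratio of 0.52. Both lay above WT by more than their bounds and just under 1.5-fold, and in the fasted pair both were called higher, at 0.84 and 0.73. Smaller differences of the same sign with bounds apart were found for the cation channel gene Trpm5 (0.32), the granule zinc transporter gene Slc30a8 (0.26), the homeobox gene Isl1 (0.25), Ucn3, a peptide of mature beta cells (0.23), the prolactin receptor gene Prlr (0.22) and Glp1r, the receptor of the incretin GLP-1 (0.14).

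The transcription factors of the beta cell did not share the ratio of the insulin genes in the refed pair, though Isl1, at 86.1 and 103, was higher by its bounds. Pdx1, a factor that binds the insulin promoter, had an FPKM of 71.0 in WT (67.2 to 74.9) and 75.4 in KR (70.4 to 80.5), and Mafa, a factor of mature beta cells, 32.8 (29.9 to 35.7) and 36.8 (32.9 to 40.7). Their bounds overlapped, as did those of Nkx6-1, at 85.5 and 79.0. Pax6 was at a ratio of 0.01, Neurod1 at -0.08, Rfx6 at -0.07 and Foxa2 at -0.08, each with overlapping bounds, and Insm1, at 75.5 and 67.6, was lower with bounds apart. In the fasted pair Mafa was called higher at 0.93, Pdx1 was at 0.49 and Isl1 at 0.37. The other factors named in this paragraph ran there from -0.02 for Insm1 to 0.24 for Neurod1. Of the ATP-sensitive potassium channel subunit genes, Abcc8 was lower by its bounds at a ratio of -0.06 and Kcnj11 overlapped at -0.10.

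The machinery of hormone processing and exocytosis lay slightly to the KR side. Of 28 tested genes 0 were called, 12 were higher by their bounds (42.9%, against 5.82% of all genes at an FPKM of 50 or more) and 2 lower, and after rescaling 16 and 0, at a median of 0.08. Pcsk2, a convertase that cuts proinsulin and proglucagon, stood at 1379 in WT and 1658 in KR, and the granin genes Scg2 and Scg3, which encode proteins of the granule core, at 2667 and 3185 and at 635 and 737. These differences are between 0.22 and 0.26 on the log2 scale. Syt5, a synaptotagmin gene, had the highest ratio at 0.32, and the small GTPase gene Rab3a followed at 0.27. Stx1a, which encodes the plasma membrane SNARE syntaxin 1A, was the lowest at -0.37 (-0.64 to -0.11), with an FPKM of 9.03 in WT and 6.73 in KR. The carboxypeptidase gene Cpe, at 1886 and 1787, was the other member lower by its bounds as deposited. Snap25 and Vamp2, further parts of the fusion complex, lay at -0.02 and 0.05 with overlapping bounds.

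Among 17 tested genes of the other endocrine cells 0 were called, and 6 were higher (35.3%) and 2 lower by bounds. Over all genes 3.50% were higher, and 5.82% at an FPKM of 50 or more, where 9 of the members lie. Glucagon (Gcg) stood at 26161 in WT and 24882 in KR, somatostatin (Sst) at 2978 and 3131 and pancreatic polypeptide (Ppy) at 12774 and 13455. All 3 ratios were within 0.07 of 0, with bounds apart, and are small beside those of Ins1 and Ins2. Ghrl, the ghrelin gene of epsilon cells, had the highest ratio at 0.69 on an FPKM of 1.59 and 3.18, with overlapping bounds. Rbp4, the retinol-binding protein gene, stood at 228 and 297, a ratio of 0.38, and the alpha-cell factors Irx1 and Irx2 overlapped between the libraries at an FPKM of 5.29 or less. In such bulk islets more cells of a type and more RNA per cell cannot be told apart.

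**Figure D2:**
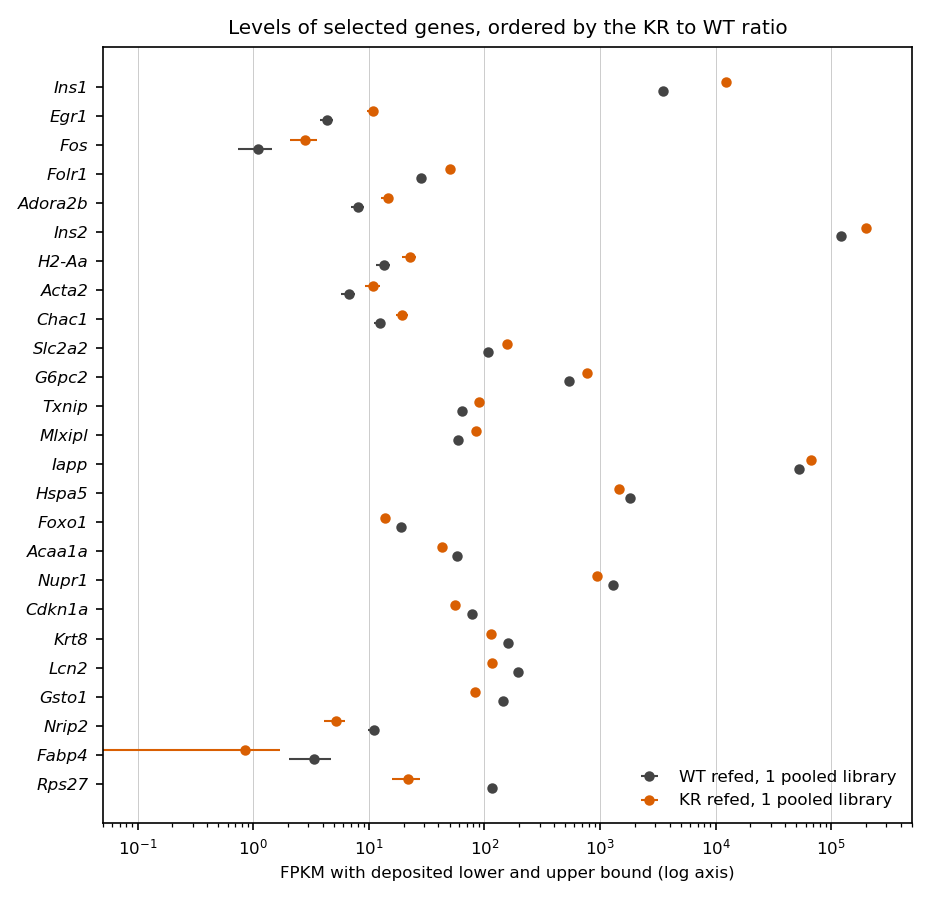
FPKM of 25 genes in refed WT (grey) and refed KR (orange) islets on a log axis, with the deposited lower and upper bounds as bars and genes ordered by their ratio. Ins1 at the top stood at 3498 and 12196, Foxo1 at 18.8 and 13.8 and Rps27 at the bottom at 117 and 21.7, while the lower bound of Fabp4 in KR is 0 and runs off the axis.

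Foxo1 itself, on chromosome 3 at 52072259 to 52154031, was lower in the KR library, with an FPKM of 18.8 in WT (17.9 to 19.6) and 13.8 in KR (12.8 to 14.7), a ratio of -0.42. A knock-in that changes amino acids need not change the transcript level, so this value does not check the genotype label. Of 30 tested FoxO target genes 0 were called, 1 was higher by its bounds and 4 lower, shares of 3.33% and 13.3% that are near those over all genes, and the median was -0.06. Cdkn1a, the cell cycle inhibitor p21, had the lowest ratio of that list at -0.48 (-0.59 to -0.37), with an FPKM of 77.3 in WT and 55.1 in KR. The other 3 lower members were Foxo1, the translation repressor gene Eif4ebp1 at -0.33 and the autophagy gene Gabarapl1 at -0.16. Irs2 and Insr, targets that carry the insulin signal, stood at 4.44 and 4.28 and at 7.40 and 7.24 with overlapping bounds, and Pdk4, which restrains pyruvate oxidation, at 10.8 and 9.96.

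Txnip, the thioredoxin inhibitor gene that glucose induces, was the single FoxO list member higher by its bounds, at 63.4 in WT (61.1 to 65.8) and 90.5 in KR (86.9 to 94.0), a ratio of 0.51. It also belongs to the list of genes under the glucose-responsive factor ChREBP, which had a median of 0.13 over 16 tested genes, with 4 higher (against 3.50% of all genes) and 0 lower by bounds and 5 and 0 after rescaling. Mlxipl, the gene of ChREBP itself, stood at 58.9 (56.9 to 60.8) and 83.9 (81.0 to 86.9), a ratio of 0.51. Rgs16, a regulator of G protein signalling, stood at 9.75 and 13.6, and Pfkfb2, an enzyme that sets the flux of glycolysis, at 36.1 and 44.5. The 4 genes named here are all those of the list with bounds apart. Arrdc4, the arrestin gene most like Txnip in its control by glucose, had a ratio of 0.28 with overlapping bounds. Pklr and Fasn, enzymes downstream of ChREBP in liver, lay at -0.20 and 0.03, also with overlapping bounds.

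No gene of fatty acid oxidation reached 1.5-fold with bounds apart. Of 40 tested members 0 were called, 2 were higher and 9 lower by bounds, and 10 had a ratio above 0 and 30 below, at a median of -0.11. By bounds 22.5% were lower, beside 11.8% of all genes and 15.9% of those at an FPKM of 20 to 50, where the median level of the list lies, and 7617 of all 11899 genes had a ratio below 0. Rescaled, 2 were higher and 4 lower, and the median lay 0.05 below that of all genes. Acaa1a, the peroxisomal thiolase, had the lowest ratio at -0.43 (-0.55 to -0.30), with an FPKM of 58.0 in WT and 42.9 in KR. Crat, a carnitine acetyltransferase, followed at -0.42, with 8.61 and 6.19, and the peroxisomal bifunctional enzyme gene Ehhadh at -0.31, with 19.3 and 15.4. Members of the mitochondrial pathway lower by their bounds were Acad9 (-0.28), Acadl, the long-chain dehydrogenase (-0.22), and Cpt2, the inner membrane carnitine transferase (-0.15). Cpt1a, the rate-limiting entry step, stood at 17.5 (16.5 to 18.4) and 16.2 (15.0 to 17.4), which overlap. Eci2, an enoyl isomerase, and the uncoupling protein gene Ucp2 were the higher members, at 0.28 and 0.14.

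Of 53 tested oxidative phosphorylation genes 47 had a ratio below 0, but the differences were small, with a median of -0.11, 0 calls and 20 genes lower and 2 higher by bounds. That is 37.7% lower beside 33.2% of all genes at an FPKM of 50 or more, and after rescaling 9 were lower and 3 higher. Cyc1, the cytochrome c1 subunit of complex III, was the lowest of the list at 153 in WT and 118 in KR, a ratio of -0.37. Ndufa1 of complex I was the highest at 0.21. Ndufs5, a complex I gene outside the list and the rule for named genes, was called lower. It stood at 4.42 in WT (1.88 to 6.96) and near 0 in KR, and its fasted ratio was 0.40. Of 33 tested glycolysis and TCA cycle genes 28 had a ratio below 0, at a median of -0.07, with 1 higher and 10 lower by bounds. That is 30.3% lower beside 33.2% of all genes at an FPKM of 50 or more, where 22 of the members lie. After rescaling 2 were higher and 3 lower. The citrate synthase gene Cs was the lowest of this list at -0.26 and the enolase gene Eno2 the highest at 0.26. Over all genes 7617 of 11899 had a ratio below 0, and the medians of both lists were off theirs by -0.06 and -0.02.

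Cholesterol synthesis had, with the duct list, the lowest median of the lists with at least 10 tested genes, at -0.17. Of 24 members 0 were called, 0 were higher and 8 lower by bounds (33.3%, against 11.8% of all genes), and 4 were lower after rescaling, when 5.61% of all genes were. Mvk, mevalonate kinase, was closest to a call at -0.58 (-0.90 to -0.27), with an FPKM of 8.54 in WT and 5.37 in KR. Hsd17b7 (-0.45) and Idi1 (-0.38), later enzymes of the pathway, and Insig1, a sterol sensor (-0.40, 22.2 and 16.6), followed. The highest ratio was that of the reductase gene Tm7sf2, 0.29 with overlapping bounds. Of 21 genes of fatty acid and triglyceride synthesis 1 was higher by bounds, Mlxipl (4.76%, against 3.50% of all genes), and 4 lower (19.0%, against 11.8%). The lower ones were the desaturase gene Scd2 (-0.31), the sterol factor gene Srebf1 (-0.25), the citrate carrier gene Slc25a1 (-0.22) and Mid1ip1 (-0.17). After rescaling 3 were higher and 3 lower, and with equal totals 2 and 4, so no direction of this list is given.

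Immediate early genes, which cells switch on within minutes of calcium or growth factor signals, were split. Egr1, a zinc finger factor, had an FPKM of 4.34 in WT and 10.8 in KR, a ratio of 1.14 (0.93 to 1.36). Fos, a subunit of AP-1, stood at 1.10 (0.739 to 1.46) and 2.82 (2.08 to 3.56), a ratio of 0.86. These were the 2 called members of 16 tested, beside 0.471% of all genes called higher, and in the fasted pair their ratios were 0.01 and -0.22. Jund was lower by its bounds at -0.21, and the other 13, among them Jun (0.15), Junb (-0.21), Nr4a1 (-0.23) and Ier3 (-0.37), overlapped. The median of the list was -0.03 as deposited and 0.02 after rescaling.

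Circadian clock genes had a median of 0.15 over 17 members, with 0 called, 5 higher and 0 lower by bounds (29.4% higher, against 3.50% of all genes), and 6 and 0 after rescaling, when 6.36% of all genes were higher. Per2, a repressor of the clock, stood at 2.38 (2.07 to 2.69) and 3.40 (2.93 to 3.87), a ratio of 0.38. The further 4 were Per3 (0.24) and the output factors Dbp (0.28), Tef (0.17) and Nr1d2 (0.14). Arntl and Cry1, which peak apart from those factors, were at -0.20 and -0.24 with overlapping bounds. In the fasted pair the median of this list was -0.04. The hour at which the islets were taken is not stated in the labels used here, and its part in these values was not tested.

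The amino acid response genes under ATF4 lay on both sides of WT. Of 31 tested members 1 was called, 5 were higher (16.1%, against 3.50% of all genes) and 8 lower (25.8%, against 11.8%) by bounds, and the median was -0.03 as deposited and 0.03 after rescaling. Chac1, which degrades glutathione, was the called member, at 12.5 in WT (11.1 to 13.9) and 19.3 in KR (17.0 to 21.6), a ratio of 0.59 beside -0.06 in the fasted pair. The other higher members were the folate enzyme gene Mthfd2 (0.24), the amino acid transporter gene Slc7a5 (0.23), Vldlr (0.18) and Cebpg (0.18). The lower ones were led by Nupr1, a stress-induced nuclear protein gene, at 1296 and 942 (-0.46), and by the mitochondrial folate enzyme genes Aldh1l2 (-0.41) and Shmt2 (-0.35). Atf4 itself stood at 153 (148 to 157) and 163 (156 to 169), and Ddit3, the stress factor CHOP, at 131 (125 to 138) and 117 (109 to 125), both with overlapping bounds. Trib3, a target of both, was at 21.6 and 22.3.

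Several chaperones of the endoplasmic reticulum were lower by their bounds. Of 33 tested genes of the unfolded protein response 0 were called, and 2 were higher and 15 lower by bounds (45.5%). After rescaling 7 were higher and 9 lower, and with equal totals 3 and 13. Of the members 22 have a mean FPKM of at least 50, where 33.2% of all genes were lower, and the list median of -0.08 is 0.03 below that of all genes. Hspa5, the chaperone BiP, had an FPKM of 1809 in WT (1796 to 1822) and 1450 in KR (1435 to 1466), a ratio of -0.32. Calr, the lectin chaperone calreticulin, stood at 1181 and 986 (-0.26), Sdf2l1, a BiP partner, at 146 and 110 (-0.40), and Creld2 at 96.7 and 78.6 (-0.30). The chaperone genes Dnajc3 (0.04), Hspa13 (0.00) and Dnajb9 (-0.07) overlapped. The sensor genes Atf6 and Eif2ak3 overlapped at 0.05 and -0.03, Ern1 was higher at 0.18 and Xbp1, the factor it activates, overlapped at 0.06.

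**Figure D3:**
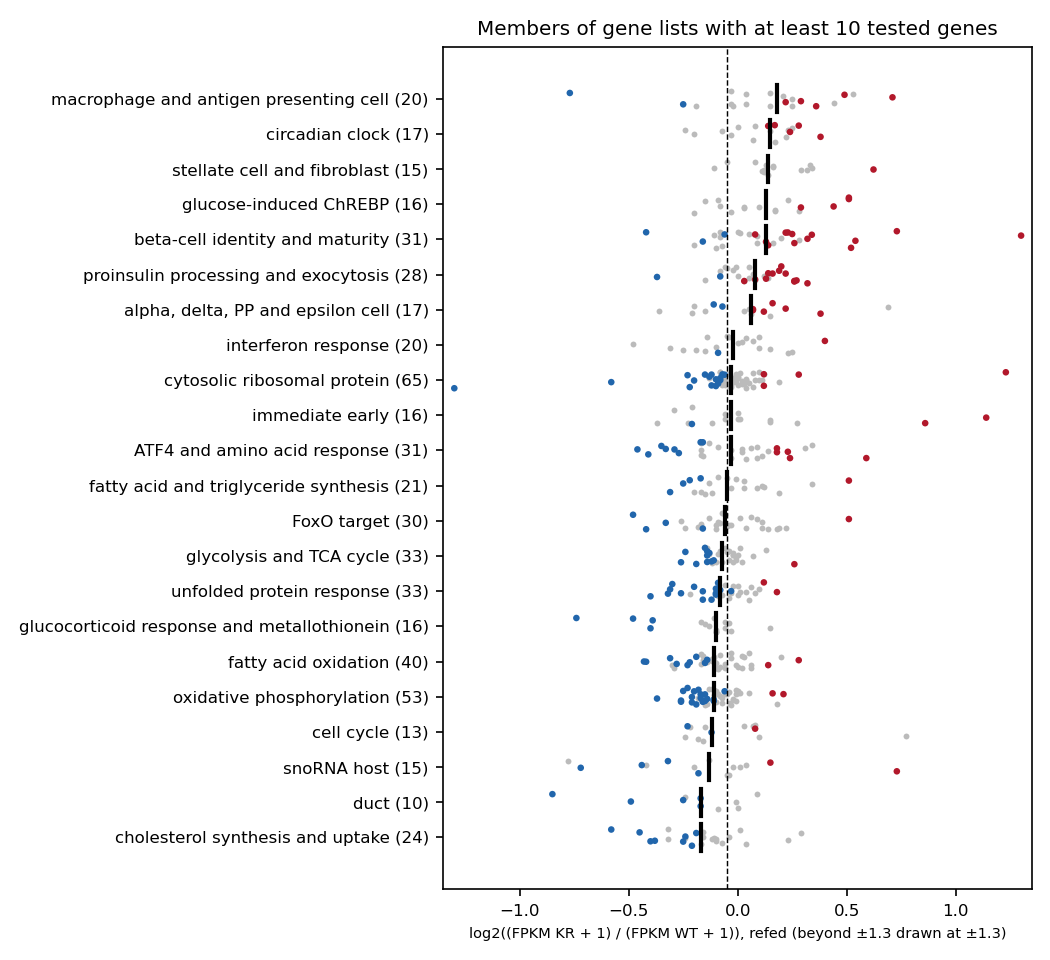
Each row is one of the 22 lists with at least 10 tested genes (number in parentheses), each point a member's log2 ratio of KR to WT, and the black bar the list median. Red and blue points have bounds apart, grey points overlap, the dashed line is the median of all genes at -0.05, and ratios beyond 1.3 are drawn at 1.3. Medians run from 0.18 for antigen presenting cells to -0.17 for cholesterol synthesis and duct genes.

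Since the mutation lies in FoxO1, the 5′ regions of called genes were searched for the FoxO core GTAAACA on both strands, from 250 bases before to 50 after the start in the RefSeq table of build GRCm38.p6. A start there was found for 44 of the 56 higher and 30 of the 45 lower genes, too few to compare shares between the sets. The first entry of a gene was used, which need not be its main start, and Ins2 and Egr1 are among the called genes with no entry matched. The letters were in 2 of the higher genes and 1 of the lower, against 2.48% of 9529 tested genes with an entry. Their 250 bases before the start are given because they are the called genes that hold the core of the factor under study. Chac1 is added as the called gene of the ATF4 list that holds TGATGCAA, a composite element of ATF4. The same letters were found in the called lower genes Avil (5.32 and 3.01) and Chchd10 (204 and 135), and in 0.588% of tested genes. The other letters searched were CACGTG, the E-box, in 1 higher and 0 lower genes and 10.5% of tested genes, TGACGTCA, the cyclic AMP element, in 5, 0 and 3.54%, and TATAAA in 4, 4 and 6.72%. Capitals mark the searched letters or their complement, and in Dapl1 also the letters TATAAA, each sequence running 5′ to 3′ on the strand of the gene.
Dapl1: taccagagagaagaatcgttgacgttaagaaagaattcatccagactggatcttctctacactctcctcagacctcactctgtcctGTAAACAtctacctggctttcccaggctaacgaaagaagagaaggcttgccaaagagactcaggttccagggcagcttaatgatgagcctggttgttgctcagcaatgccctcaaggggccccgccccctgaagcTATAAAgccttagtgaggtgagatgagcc
Ugt2b35: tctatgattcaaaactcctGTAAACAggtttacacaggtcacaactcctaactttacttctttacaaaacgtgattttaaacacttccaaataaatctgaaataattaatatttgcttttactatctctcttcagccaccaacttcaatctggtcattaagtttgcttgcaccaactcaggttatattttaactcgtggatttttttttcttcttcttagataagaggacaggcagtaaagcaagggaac
Ttll10: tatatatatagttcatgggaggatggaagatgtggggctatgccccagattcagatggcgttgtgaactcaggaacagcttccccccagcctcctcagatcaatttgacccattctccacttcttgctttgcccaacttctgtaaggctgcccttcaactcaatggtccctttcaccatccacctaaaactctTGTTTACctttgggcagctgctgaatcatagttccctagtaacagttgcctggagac
Chac1: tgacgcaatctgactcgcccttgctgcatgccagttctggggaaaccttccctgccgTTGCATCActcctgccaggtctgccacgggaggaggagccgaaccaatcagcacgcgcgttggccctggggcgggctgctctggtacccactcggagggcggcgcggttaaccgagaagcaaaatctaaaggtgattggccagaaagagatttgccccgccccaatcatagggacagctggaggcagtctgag
Dapl1 (chr2:59484403-59484652, plus strand) holds GTAAACA beginning 164 bases before the start and stood at an FPKM of 12.6 in WT and 21.9 in KR. Ugt2b35 (chr5:87000610-87000859, plus strand), a glucuronosyltransferase gene, holds it 231 bases before and stood at 3.36 and 5.55. Ttll10 (chr4:156050818-156051067, minus strand) holds it as its complement 57 bases before and was lower in KR, at a ratio of -0.62. Chac1 (chr2:119350992-119351241, plus strand) holds the complement of TGATGCAA 193 bases before. A match describes letters and does not show that a factor binds there, and the 3 genes with the FoxO core lay on both sides of WT.

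The called genes with the highest ratios at a mean FPKM of at least 5 include, beside those described above and Dapl1, 6 more named genes. Folr1, the folate receptor, stood at 28.2 in WT (25.9 to 30.5) and 50.7 in KR (46.7 to 54.7), a ratio of 0.82. Adora2b, the adenosine A2B receptor that couples to cyclic AMP, stood at 8.05 and 14.5, a ratio of 0.78, and Cd9, a tetraspanin, at 16.9 and 29.0, a ratio of 0.74. Snhg11, a long noncoding host gene, stood at 8.75 and 15.2 (0.73), the calcium-binding protein gene Cib3 at 22.1 and 37.2 (0.72), and Acp5, a phosphatase of osteoclasts and macrophages, at 5.10 and 9.05 (0.72). Gm9781, which has no gene name, was higher still at 9.16 and 23.6 (1.28). The bounds of the 6 named genes were apart, and all 6 were also above WT in the fasted pair, by 0.43 to 0.86.

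On the lower side Nrip2, a nuclear receptor interacting protein gene, stood at 11.1 in WT (9.84 to 12.3) and 5.17 in KR (4.10 to 6.25), a ratio of -0.97. Gsto1, a glutathione transferase, stood at 144 (138 to 150) and 83.2 (77.6 to 88.9), a ratio of -0.79. S100a4, a calcium-binding protein gene, shared that ratio at 31.4 and 17.7, and Gpnmb, a membrane glycoprotein gene, was at 9.25 and 5.12 (-0.74). Adm2, a peptide of the adrenomedullin family, stood at 9.79 and 5.59 (-0.71), the collagen gene Col14a1 at 7.83 and 4.55 (-0.67) and the isomerase gene Pin4 at 23.7 and 14.5 (-0.67). Pin4 was at 0.16 in the fasted pair, and the other 6 lay below WT there, by -0.45 to -0.84. Ugt1a6b, at 47.3 and 28.0, shares exons with other genes of its locus, so its value is uncertain.

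Among genes that glucocorticoids or metals induce, 12 of 16 overlapped between the libraries. Of these 16 tested members 15 had a ratio below 0, the exception being Per1 at 0.15, 0 were higher and 4 lower by bounds (against 11.8% of all genes), the same count after rescaling. Over all genes 7617 of 11899 had a ratio below 0, and the list median of -0.10 lay 0.05 lower than theirs. Lcn2, a lipocalin that binds iron carriers, was called, with an FPKM of 195 in WT (187 to 203) and 116 in KR (108 to 124), a ratio of -0.74. The metallothionein genes Mt1 and Mt2, whose proteins bind zinc, stood at 3186 and 2438 and at 1707 and 1298, ratios of -0.39 and -0.40. Cdkn1a is the fourth. Fkbp5, a close readout of the glucocorticoid receptor, overlapped at 29.1 and 27.9, as did Tsc22d3 at 14.3 and 13.2.

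The duct list holds several genes that islet cells also express. Of its 10 tested members 5 were lower by bounds and 0 higher, also after rescaling, against 33.2% lower among all genes at an FPKM of 50 or more, where 6 of the members lie. The median was -0.17, and -0.01 with no filter on low values. Krt8 stood at 160 in WT and 113 in KR (-0.49), Krt18, its partner in simple epithelia, at 204 and 181 (-0.17), Krt7 at 521 and 464 (-0.17) and Cldn4 at 170 and 143 (-0.25). Krt19, the defining duct keratin, was called at 2.65 (1.93 to 3.36) and 1.02 (0.455 to 1.59), a ratio of -0.85, whereas the duct factor Sox9 stood at 0.128 and 0.139. Spp1 and Epcam, further genes of the list, lay within 0.01 of 0. Summed over the list, the FPKM came to 1291 in WT and 1130 in KR, and the part of duct cells in these values was not tested.

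Genes of antigen presenting cells had the highest median of the lists with at least 10 genes, 0.18 over 20 members. By bounds 5 were higher (against 3.50% of all genes) and 2 lower (against 11.8%), with 1 called each way. H2-Aa, a class II chain, stood at 13.4 in WT (11.5 to 15.2) and 22.5 in KR (19.4 to 25.6), a ratio of 0.71. Cd74, the invariant chain, followed at 19.0 and 27.1 (0.49), and the dendritic cell integrin gene Itgax at 2.20 and 3.12 (0.36). The lysozyme genes went the other way, with Lyz2 at 142 and 119 and Lyz1 at 1.59 and 0.520, which are alike in sequence, so that their split is uncertain. The macrophage markers Cd68, at 27.9 and 24.3, and Csf1r, at 4.84 and 4.99, overlapped, and the list summed to 506 in WT and 526 in KR. Cd79a, a B-cell receptor subunit, was called at 3.36 and 5.98 (0.68), and Cxcl13, the chemokine that attracts B cells, at 1.12 (0.605 to 1.63) and 3.94 (2.71 to 5.17), a ratio of 1.22. Over the 4 tested lymphocyte genes the sum was 15.3 in WT and 21.6 in KR, with Coro1a the lowest ratio at 0.21 and Cd3e and Ms4a1 at 0, and the part of these cells in other results was not tested.

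Of 15 stellate cell and fibroblast genes 13 had a ratio above 0, beside 4282 of all 11899 genes, at sums of 221 and 250. The median was 0.14, which is 0.20 above that of all genes, and -0.07 in the fasted pair. By bounds 1 was higher (6.67%, against 3.50% of all genes) and 0 lower. Acta2, smooth muscle actin, was that one and was called at 6.67 (5.69 to 7.65) and 10.8 (9.20 to 12.4), a ratio of 0.62. Col1a1 and Pdgfrb, the defining markers, overlapped at 1.46 and 1.69 and at 2.11 and 2.36. The lowest ratio was -0.11, of Col6a1. The 6 tested endothelial genes all overlapped, from Plvap at -0.33 to Egfl7 at 0.49, with sums of 24.1 and 23.4. Fabp4, a lipid binding protein of adipocytes and endothelium, was called at 3.38 (2.05 to 4.71) and 0.850 (0 to 1.70), a ratio of -1.24, and the lipoprotein lipase gene Lpl stood at 178 and 140 (-0.34), while the receptor gene Acvr1c was higher (0.31). Of 6 tested acinar genes Cela1 was higher by its bounds (0.28), Ctrb1 overlapped at 0.40, and the sums were 68.6 and 78.8.

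Of 20 interferon response genes 0 were called, and B2m, the light chain of class I molecules, was the single higher one by bounds, at 279 and 369 (0.40), with H2-D1 lower at -0.09 and Oas1a, overlapping, the lowest at -0.48. Of 13 cell cycle genes 0 were called. Ccnd1, cyclin D1, stood at 45.8 and 39.0 (-0.23) and Cdk4, its kinase, at 212 and 195 (-0.12), both lower by bounds, and Ccnd2, the main D cyclin of islets, was higher at 77.4 and 81.7 (0.08). Cdkn2a, an inhibitor gene that marks aging islets, and Mcm2, of the replication helicase, were the extremes at 0.77 and -0.24, both overlapping. The 7 tested genes that beta cells normally keep low all overlapped, led by Cd302 at 0.63 and Mgst1 at -0.67. Of 6 progenitor genes Serpina7, the thyroxine-binding globulin, was lower at 30.8 and 22.0 (-0.47), and Neurog3, the endocrine progenitor factor, overlapped at 9.73 and 9.08, as did Fev at a ratio of 0.18. Among 5 neuronal and glial genes Th, tyrosine hydroxylase, was higher at 43.2 and 60.1 (0.47) and Tubb3 lower at -0.25. Of 4 tested sex-linked genes, all on the Y chromosome, Eif2s3y was lower at 82.7 and 72.8 and Uty level at 0.01, so RNA of males is in both pools. The red blood cell list had 0 tested genes.

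Among ribosomal protein genes 3 stood out. Over 65 members the median was -0.03, and 4 were higher and 17 lower by bounds. After rescaling 13 were higher and 5 lower, and with equal totals 8 and 14, so no direction of the family is given. Rps27, on chromosome 3 at 90016589 to 90017570, stood at 117 and 21.7, a ratio of -2.38 with bounds apart. Rpl26 stood at 12.1 and 29.6, a ratio of 1.23 with bounds apart, and Rpl38 at 1227 and 820 (-0.58). Near-identical copies exist for ribosomal protein genes, so fragments may be split between a gene and its copies and these values are uncertain. The same holds for 2 pseudogenes at the extremes: Rpl34-ps1 stood at 31.4 in WT and was near 0 in KR, and Pisd-ps1 was near 0 in WT and stood at 14.6 in KR. The snoRNA host genes had a median of -0.13 over 15 members, with 1 called each way (against 0.471% of all genes higher and 0.378% lower). By bounds 2 were higher (13.3%, against 3.50% of all genes) and 4 lower (26.7%, against 11.8%), and after rescaling 2 and 3. Of all genes at an FPKM of 50 or more, where 7 of the members lie, 33.2% were lower as deposited. Snhg11, called higher at 0.73, and Rps3a, at 726 and 804 (0.15), were the higher ones. Below WT stood Snhg6, called at 103 and 62.3 (-0.72), Snhg1 at 104 and 76.4 (-0.44), Snhg12 at 93.5 and 74.7 (-0.32) and Snhg9, the lowest at -0.78, overlapping.

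A ratio of at least 2-fold, with no demand on the bounds, was reached by 20 genes higher (0.168%) and 25 lower (0.210%) in KR. Of these 45, 23 were small RNA genes, 71.9% of the 32 tested, against 0.185% of the other genes, and the bounds were apart in 20 of the 45. In 21 of them 1 library was listed at 0 or near it, for which no fold is given. After leaving out these and the small RNA genes, 14 called genes remained at 2-fold. They include, outside the rule for named genes and chosen after their values were seen, the tight junction gene Cldn11 (1.07), the cannabinoid receptor gene Cnr1 (1.04), the carboxypeptidase gene Cpb2 (1.05), Ms4a6c (-1.15) and Vnn3 (-1.06). Of all 101 calls, 54 rest on a mean FPKM under 5.

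The fasted pair shares no library with the refed pair, and its values were set beside the refed calls. Of 55 genes called higher in refed KR with a fasted value, 51 were above WT there too (92.7%, against 40.3% of all genes), at a median of 0.46 beside 0.71 when refed. Of 45 called lower, 34 were below WT in the fasted pair (75.6%, against 59.7%), at a median of -0.29 beside -0.72. Calls by the same rule in both pairs numbered 17 higher, which is 30.4% of the refed and 27.9% of the fasted calls, and 11 lower, 24.4% of each. Of all genes tested in the fasted pair 0.512% were called higher and 0.377% lower. No gene was called in opposite directions, though calls this rare leave little room for that. Ins1 had a ratio of 0.88 in the fasted pair, and Ins2 has no usable value in the fasted KR library. Calls of similar size in both pairs include Adora2b (0.78 refed, 0.86 fasted), Nrip2 (-0.97, -0.84) and Gsto1 (-0.79, -0.64). Called genes with a fasted ratio within 0.1 of 0 included Egr1, Chac1, Tesc (0.66 refed, 0.06 fasted) and Tagln3 (0.91, 0.06), the last 2 chosen after their values were seen. Whether these ratios differ between feeding states was not tested, as each rests on 1 library a side.

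**Figure D4:**
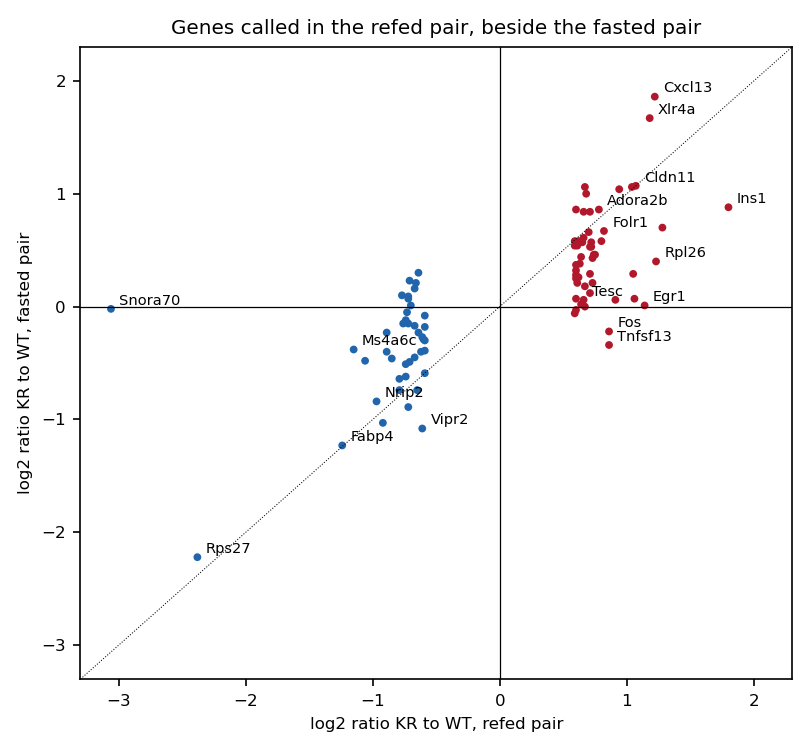
Log2 ratio of KR to WT in the refed pair (x axis) against the fasted pair (y axis) for 95 called genes with a value above 0.01 in both refed libraries and a fasted value, the dotted line marking equal ratios. Red genes were called higher and blue ones lower when refed. Rps27 and Fabp4 lie near the line, Ins1 below it at 1.80 and 0.88, and Egr1 at 1.14 and 0.01.

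By chromosome, the share of tested genes that were called ran from 0.321% on chromosome 17 to 1.74% on chromosome 3, leaving aside the 4 genes of the Y chromosome. Over all tested genes that share was 0.849%. Chromosome 3, which carries Foxo1, held 10 calls among 576 tested genes, 4 higher and 6 lower. Among them are Fabp4 and S100a4, and Rps27 and Rpl34-ps1, whose values are uncertain as said above. Chromosome 19, which carries Ins1, followed with 7 of 418 (1.67%). The part of position in these calls was not tested.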

How the data were processed

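RNA of pooled islets was selected for poly-A and prepared with an Illumina TruSeq kit, per the labels' protocols. The submitters' processing notes list bcl2fastq 1.8.4, TopHat2 2.0.4 and the build mm9. Per the file headers, the authors deposited for each gene an FPKM, its bounds on either side and a status. Which program computed them is not given in the sources used here.

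A library's table has 23699 rows. Rows of one symbol were summed, bounds included, values whose status was not OK were set to missing, and starts were counted from 1. With 1 pooled library a group no test was possible, and no p-value is given. Implied fragments are (FPKM/SE) squared, where SE is the distance to the upper bound divided by 2, and relative depth uses genes with over 200 of them. Intervals of ratios combine these errors of both libraries and cover counting error only. Promoter symbols were matched directly or by a single RefSeq synonym, and the first entry of a gene was used.

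The members and the 32 gene lists were chosen with earlier results of these data known. The named genes are a panel of islet genes, the 12 highest and 12 lowest called ratios at a mean FPKM of at least 5 without small RNA and unnamed genes, list members that were called, and the highest and lowest member of each list described. A few genes that this rule names are not reported here. Other members are named as examples of a list and were picked after their values were seen. Small RNA genes are those with such a symbol or shorter than 300 bases. Alternatives were 2 other pseudocounts, 2 other filters, 2 rescalings, another treatment of repeated symbols, leaving out small RNA genes and 3 other call rules. The analysis used Python 3.11.15, pandas 2.3.3 and numpy 2.4.6.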

Additional observations from a re-analysis of the deposited data

Results flagged for a closer look

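In 3 of the named genes the bounds of KR and WT were apart in opposite directions in the refed and the fasted pair. Glucagon (Gcg) had a ratio of -0.07 when refed and 0.29 when fasted, and after rescaling the refed ratio was -0.02. Pancreatic polypeptide (Ppy) was at 0.07 and -0.14, and the syntaxin gene Stx1a at -0.37 and 0.30. Each pair is 1 library a side, and the difference between the pairs was not tested.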

How the results depend on the processing

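No value has a replicate check, and the numbers of called genes move with the settings. With a pseudocount of 0.1 in place of 1, 69 genes were lower, 44 and 46 were at least 2-fold higher and lower, and 44 calls were shared with the fasted pair, against 28. With a pseudocount of 5, 12 were higher and 13 lower, 10 at least 2-fold higher, and 10 shared, and the ratios of Fos (0.36), Cxcl13 (0.55), Krt19 (-0.34), Col14a1 (-0.43), Gpnmb (-0.49) and Snhg11 (0.55) were under 1.5-fold. With a mean FPKM of at least 5, 30 were higher and 17 lower, 13 at least 2-fold higher, and 14 shared. Without small RNA genes 8 were at least 2-fold lower, and 9 without genes near 0 in a library, an alternative chosen after seeing the data. Asking for no bounds gave 89 higher and 83 lower, bounds widened 2 times gave 18 and 13, and a smaller fold threshold gave 164 and 313. With KR rescaled to a median ratio of 0, 66 were called higher and 34 lower, 66.0% higher against 55.4% as deposited. By bounds alone that rescaling gave 757 and 667, 53.2% higher against 22.8%. With equal totals without Ins1 and Ins2, 57 were called higher and 38 lower, and by bounds alone 509 and 1108, 31.5% higher. The bounds count was itself added after seeing the data. With no filter on low values the medians of the adipocyte and duct lists moved to 0.00 and -0.01. Of the ratios of named genes over the alternatives 789 stayed within their counting interval and 30 moved. Filters, leaving out genes and the treatment of repeated symbols do not alter the ratio of a named gene, so those settings could move none. All that moved did so with another pseudocount or a rescaling. That 0 called ratios changed sign was fixed in advance. A pseudocount cannot change a sign, and the rescalings were too small to change that of a called ratio. No paired analysis was possible because the refed comparison has 1 library a side and the labels give no replicate numbers. The depth of the refed KR library limits genes of low level most.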
